A study of Mus musculus with 9 samples.

Results

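The Hox cluster genes are the homeobox transcription factor genes that lie in 4 chromosomal clusters, Hoxa, Hoxb, Hoxc and Hoxd. Members were all genes on the array whose symbol was Hox, a cluster letter and a number, taken from probe sets with 1 gene symbol, and this gave 37 of the 19938 genes measured. There were 10 members in Hoxa and 9 in each of Hoxb, Hoxc and Hoxd, and each was represented by 1 probe set. Hoxb8 was represented only by a probe set shared with Hoxb7, which is left out of the counts.

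RNA was measured on 9 single-sample arrays in 3 groups of 3. The osteosarcoma group held 3 tumour lines from C57BL/6 mice of genotype Osx-Cre p53fl/fl Rbfl/fl, described as fibroblastic and adult, 1 array per line, harvested subconfluent below passage 8; lines 1 and 3 came from females and line 2 from a male. Osx-Cre places the recombinase under the osterix promoter, which is active in cells committed to the osteoblast lineage, so both tumour suppressor alleles are lost in that lineage. The osteoblast group held 3 independent samples of Kusa4b10, a mouse bone marrow stromal line, after 21 days in medium with ascorbate. The pre-osteoblast group held 3 independent samples of the same line, undifferentiated. Both Kusa4b10 groups are therefore 1 cell line with neither tumour suppressor named as targeted, and the tumour state cannot be told apart from the line of origin. Differentiation likewise cannot be told apart from the medium or the days of growth. The bone from which a tumour line came is not given in the labels used here.

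Hox proteins bind DNA together with cofactors of the TALE homeobox class and give cells of the embryo their position along the body axis and along the limb. Genes at the 3' end of a cluster (low paralogue numbers) act toward the head, and genes at the 5' end act toward the tail and, in the Hoxa and Hoxd clusters, toward the tip of the limb. Skeletal and stromal cells of the adult keep much of the pattern of the place where they arose, and most bones of the face and skull vault come from neural crest that expresses no Hox gene. The members are grouped below as anterior (paralogue groups 1 to 4, 11 genes), central (5 to 8, 10 genes) and posterior (9 to 13, 16 genes).

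The labelled cell types were checked against marker genes. Of 9 osteoblast markers, 7 were called higher in the osteoblast than in the pre-osteoblast cultures, where 10.3% of all genes were. Among them was Ibsp (bone sialoprotein) at 12.91 to 13.62 against 5.97 to 6.72. The osteoblast cultures also carried adipocyte markers: 6 of 6 were called higher than in pre-osteoblasts, and their mean level was 10.67 to 11.54 against 7.02 to 7.63, with 6.84 to 7.11 in the tumour lines. In the tumour lines Col1a1, the main collagen of bone, stood at 12.81 to 13.53, whereas Dmp1, an osteocyte matrix protein, stood at 6.28 to 6.71. Of the 9, 5 were called lower and 0 higher in the lines than in osteoblasts (12.7% and 14.7% of all genes). Against pre-osteoblasts 1 was called higher (9.96% of all genes), Alpl, at 9.69, 10.22 and 12.37 in the lines, and 0 lower (13.5%). Markers of other cell types were read against the 95th percentile of olfactory and vomeronasal receptor genes, which served as a background level. Of 6 haematopoietic markers, 3 were above it on no array (Ptprc, or CD45, at 5.97 to 6.21, Laptm5 and Itgam) and 2 on all 9 (Cd68 at 7.95 to 8.35 and Cd14 at 7.53 to 8.25). Of 5 endothelial markers, 4 were above it on no array, Pecam1 at 6.37 to 6.52 among them, and Tek read 9.02 in line 1 and 7.15 in line 3. Of 5 epithelial markers, Epcam was above it on no array (6.10 to 6.29) and Cdh1 on all 9 (6.92 to 7.13). Krt19 read 8.07, 8.48 and 7.06 in the lines, 6.72 to 6.95 in osteoblasts and 7.56 to 7.68 in pre-osteoblasts. The part of these other markers in the Hox differences was not tested. Rb1, a targeted gene, read 9.26, 9.67 and 9.85 in lines 1, 2 and 3, 10.63 to 10.65 in osteoblasts and 9.17 to 9.28 in pre-osteoblasts; its probe set summarises probes whose position relative to the deleted part is not known here, so it does not test the deletion. Trp53 was not analysed here. In bulk RNA, fewer cells of a type and less RNA per cell cannot be told apart, and the part of the adipocyte signal in any Hox difference of the osteoblast cultures was not tested.

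Upstream sequence of the members on which the results turn is shown first, as the 250 bases before the annotated start, 5' to 3' on the gene's own strand, from RefSeq on build GRCm38.p6. Of the 37 members, 21 had such a window and 16 had none in the table used, Hoxc12 and Hoxc13 among the latter. Hoxa11 and Hoxa10 are neighbours on chromosome 6 whose levels behaved differently in the tumour lines, and Hoxd8 was the Hoxd gene called in both comparisons with the tumour lines. Capitals mark matches, on either strand, to the TATA box (searched as TATAAA), the CCAAT box (searched by its own letters), the GC box (searched as GGGCGG) or a letter pattern bound by Pbx and Hox together (searched as TGATNNAT). The window of Hoxa11, chr6:52245811-52246060 on the minus strand, held no match and 13 CpG pairs, with 52.0% G or C. The first Hoxa10 window, chr6:52234940-52235189 on the minus strand, held a TATA box 160 bases and a CCAAT box 64 bases before the start, both read on the opposite strand, and 20 CpG pairs. The second Hoxa10 window, chr6:52240855-52241104 on the minus strand, held a GC box 90 bases before the start and 7 CpG pairs. The Hoxd8 window, chr2:74704365-74704614 on the plus strand, held a CCAAT box 62 bases before the start and 6 CpG pairs.
Hoxa11: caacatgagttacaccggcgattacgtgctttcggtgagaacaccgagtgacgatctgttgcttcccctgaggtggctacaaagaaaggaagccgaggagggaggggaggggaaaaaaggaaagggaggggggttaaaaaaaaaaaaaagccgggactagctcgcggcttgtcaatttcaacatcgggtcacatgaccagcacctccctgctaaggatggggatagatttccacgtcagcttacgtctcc
Hoxa10 first start: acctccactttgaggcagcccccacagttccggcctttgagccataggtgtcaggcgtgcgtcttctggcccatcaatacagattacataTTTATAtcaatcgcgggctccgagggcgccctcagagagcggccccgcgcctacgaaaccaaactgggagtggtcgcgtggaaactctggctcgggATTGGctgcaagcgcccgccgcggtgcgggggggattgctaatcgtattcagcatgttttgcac
Hoxa10 second start: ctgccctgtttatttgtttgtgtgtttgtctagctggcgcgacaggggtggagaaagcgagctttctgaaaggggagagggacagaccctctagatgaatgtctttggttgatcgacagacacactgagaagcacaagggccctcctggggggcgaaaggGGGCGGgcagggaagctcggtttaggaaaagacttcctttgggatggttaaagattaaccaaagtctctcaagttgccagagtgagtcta
Hoxd8: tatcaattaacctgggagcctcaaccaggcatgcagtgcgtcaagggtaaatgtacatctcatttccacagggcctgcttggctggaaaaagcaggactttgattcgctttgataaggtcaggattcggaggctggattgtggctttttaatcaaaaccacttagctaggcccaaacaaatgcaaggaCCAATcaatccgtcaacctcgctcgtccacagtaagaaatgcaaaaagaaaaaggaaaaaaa

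Of the 23 Hox windows, 13 held the CCAAT box, 9 the GC box, 3 the TATA box and 3 the Pbx and Hox pattern. The shares among all 32851 windows of the same length were 33.8%, 32.7%, 12.4% and 7.68% in that order. The median count of CpG pairs was 13 in Hox windows and 6 over all windows. A match is a letter pattern and not a measured binding site.

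Levels are log2 values per gene, and probe sets respond differently, so levels of different genes are not compared as amounts. Each gene was read against a background range and, more coarsely, against the median of all genes. Both come from other probe sets, so neither removes the difference in response. The range came from 1194 olfactory and vomeronasal receptor genes, which are not known to be transcribed in bone or stroma. Their 95th percentile lay between 6.67 and 6.85 over the arrays and their 99th between 7.44 and 7.59. Of the 37 Hox genes, 25 were above the 95th percentile on all 9 arrays (67.6%, against 63.0% of all genes), and 5 were above it on no array (13.5%, against 26.9%). At the 99th percentile, 15 were above on all 9 arrays (40.5%, against 49.7% of all genes). A level above the range is not a detection call. Myod1, a muscle marker, read 7.05 to 7.28 and was above the 95th percentile on all 9 arrays.

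The Hoxa genes from Hoxa4 to Hoxa10 were among the 12 Hox genes above the median of all genes on each of the 9 arrays (32.4%, against 44.0% of all genes). Hoxa9, a posterior gene used in the upper limb segment, read 9.74, 10.31 and 9.85 in lines 1, 2 and 3, 9.63 to 9.80 in osteoblasts and 9.90 to 10.10 in pre-osteoblasts. Hoxa4 read 8.54 to 8.78 over all 9 arrays and was called in no comparison. Hoxa13, the gene of the limb tip and the urogenital end of the body, read 6.66, 7.09 and 7.46 in the lines and 6.85 to 7.21 in the Kusa4b10 cultures, near the receptor range throughout.

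In the Hoxc cluster, 8 of 9 members were above the 95th percentile of receptor genes on all arrays, the exception being Hoxc4, which read 6.48 in line 3 and 6.81 in osteoblast replicate 3, both under it. In the Hoxb cluster 8 of 9 were above it, and Hoxb13, the most 5' member, read 6.41 to 6.54 and was above it on no array. Hoxb1, an anterior gene of the hindbrain, read 7.97 to 8.07 on all 9 arrays, with a single value shared by 4 of them. Its level alone does not show that it is expressed.

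The Hoxd cluster gave a different picture: 0 of 9 members were above the 99th percentile of receptor genes on any array, and 4 (Hoxd1, Hoxd3, Hoxd12 and Hoxd13) were above the 95th on none. Hoxd13, the gene mutated in synpolydactyly, read 6.18 to 6.54. Hoxd10 read 6.66 to 7.03 and Hoxd11 6.99 to 7.24. The deposited value was the same to the last decimal on at least 3 arrays for 5 of the 9 Hoxd genes, and for 2, 3 and 1 genes of Hoxa, Hoxb and Hoxc. For Hoxd3, Hoxd10, Hoxd11 and Hoxd13 a single value was shared by 5 of the 9 arrays.

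**Figure D1:**
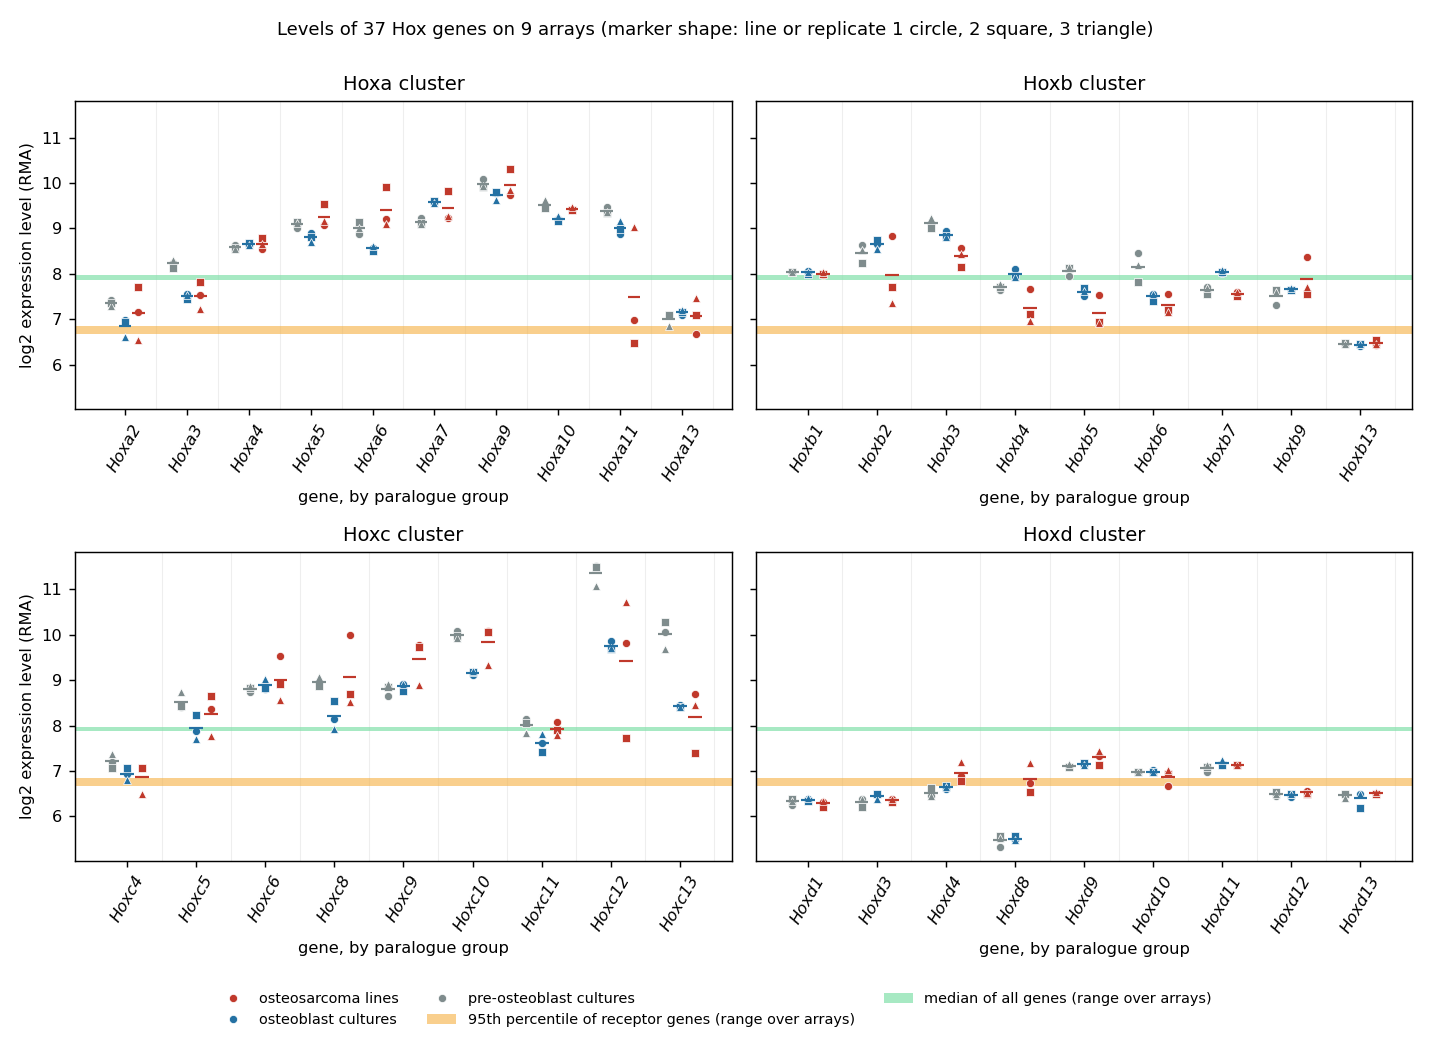
Log2 level of each of the 37 Hox genes on 9 arrays, by cluster and paralogue group; points are arrays, short bars are group means, the orange band is the 95th percentile of receptor genes and the green band the median of all genes, each as its range over arrays. Hoxa4 to Hoxa10 sit above the green band on all 9 arrays, and no Hoxd gene reaches it.

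The first comparison asks which Hox genes differed between the differentiated and undifferentiated state of 1 cell line. Hoxc10, Hoxc11 and Hoxc13 (3 of 5 posterior Hoxc genes), Hoxa3, Hoxa10 and Hoxb6 were lower in the osteoblast than in the pre-osteoblast cultures, and Hoxb7 was higher. At an adjusted p below 0.05 (limma, adjusted over 19938 genes), 6 of 37 Hox genes were lower in osteoblasts (16.2%, against 15.8% of all genes) and 1 was higher (2.70%, against 10.3%). In this fit, whose spread is shared with the tumour lines, the share of Hox genes called lower was near that of all genes. With the Kusa4b10 arrays alone in the fit, it was 37.8%, against 19.0% of all genes. The median difference was -0.02 log2 over the 37 genes and -0.59 over the 9 Hoxc genes, which are neighbours and not independent.

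Hoxc13, which patterns hair and nails, read 10.07, 10.28 and 9.69 in the 3 pre-osteoblast cultures and 8.46, 8.41 and 8.42 in the osteoblasts. All osteoblast cultures lay more than 1 log2 below the lowest pre-osteoblast culture. The gene fell by 1.59 on the log2 scale (SE 0.30, adjusted p = 0.0058), which is 3.00-fold. Its neighbour Hoxc12 read 11.51, 11.50 and 11.07 in pre-osteoblasts and 9.86, 9.69 and 9.71 in osteoblasts. Those groups did not overlap either, but the difference of -1.61 (SE 0.63) had an adjusted p of 0.104 in a fit whose spread is shared with the tumour lines, which differ by 3.02 log2 at this gene. With the Kusa4b10 arrays alone in the fit, the same difference of Hoxc12 had an adjusted p of 0.000446.

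Hoxc10, a lumbar and hindlimb gene, read 10.08, 9.96 and 9.94 in pre-osteoblasts and 9.11, 9.18 and 9.21 in osteoblasts, a difference of -0.83 (SE 0.18, adjusted p = 0.0108). Hoxc11, its 5' neighbour, went from 8.13, 8.06 and 7.84 to 7.60, 7.42 and 7.82, with a difference of -0.40 (SE 0.12, adjusted p = 0.0464). Hoxc11 was only narrowly separated, its highest osteoblast culture lying just under its lowest pre-osteoblast culture.

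Among the other clusters, Hoxa3, needed for thymus, parathyroid and neck structures, read 8.25, 8.13 and 8.31 in pre-osteoblasts against 7.55, 7.43 and 7.52 in osteoblasts (-0.73, SE 0.13, adjusted p = 0.00486). Hoxa10, a gene of the upper limb segment and of osteoblast gene activation, went from 9.51, 9.44 and 9.62 to 9.21, 9.16 and 9.27 (-0.31, SE 0.06, adjusted p = 0.00672). This was a small step that nonetheless separated the groups. Hoxb6 went from 8.45, 7.82 and 8.20 to 7.56, 7.40 and 7.56 (-0.65, SE 0.16, adjusted p = 0.0201). Hoxb7, a central gene expressed in mesenchymal stroma, was the gene that rose, from 7.71, 7.55 and 7.68 to 8.03, 8.05 and 8.07 (0.40, SE 0.06, adjusted p = 0.00155). The probe set that Hoxb7 shares with Hoxb8 did not rise. It read 6.91, 6.77 and 6.93 in pre-osteoblasts and 6.77, 6.70 and 6.80 in osteoblasts, near the receptor range.

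Without regard to a test, 17 of 37 Hox genes had all osteoblast cultures below all pre-osteoblast cultures (45.9%, against 25.1% of all genes), and 3 had them all above (8.11%, against 19.1%). The 17 were 7 genes each of Hoxa and Hoxc and 3 of Hoxb, and 0 of Hoxd. The 3 were Hoxa7, Hoxb4 and Hoxb7. In a fit of the 6 Kusa4b10 arrays alone, 14 Hox genes were called lower (37.8%, against 19.0% of all genes) and these same 3 were called higher (8.11%, against 12.7%). In that fit Hoxa7, a thoracic gene, stood at 0.43 (SE 0.05, adjusted p = 0.00203), with cultures at 9.57, 9.60 and 9.55 against 9.23, 9.12 and 9.09. Hoxa6, its 3' neighbour, went the other way, at -0.45 (SE 0.08, adjusted p = 0.00544), with 8.56, 8.51 and 8.61 against 8.89, 9.14 and 9.01. Hoxc11 was not called in that fit (adjusted p = 0.0517).

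Which calls held depended on single arrays in the fit of all groups. The fall of Hoxb6 lost its call without any 1 of osteoblast replicates 1, 2 and 3 or pre-osteoblast replicates 1 and 3 (adjusted p between 0.0528 and 0.0655). That of Hoxc11 lost it without line 2 (0.0551), osteoblast replicates 1 (0.121) and 2 (0.136) or pre-osteoblast replicates 1 (0.143) and 2 (0.128). Hoxc12 gained one without line 2 (0.0018) or line 3 (0.0381), Hoxc8 without line 1 (0.0103), and Hoxa2 (0.0429) and Hoxc5 (0.0277) without line 3. The count of genes called higher was 3 without line 1 and 2 without line 2.

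The second comparison sets the tumour lines against undifferentiated Kusa4b10. Hoxb3, Hoxb5, Hoxb6, Hoxa3, Hoxa11 and Hoxc13 were lower in the tumour lines, and Hoxd4 and Hoxd8 were higher. Of 37 Hox genes, 6 were called lower (16.2%, against 13.5% of all genes) and 2 higher (5.41%, against 9.96%). Both shares were close to or under those of all genes. The groups did not overlap for 8 genes that were lower in the lines (21.6%, against 20.2% of all genes) and for Hoxd4 and Hoxd8, which were higher (5.41%, against 15.4%). The median difference was -0.45 over the 9 Hoxb genes and -0.04 over all 37.

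Of the 9 Hoxb genes, 3 were called, and these were 1 of 4 anterior and 2 of 3 central genes. Hoxb5, a gene of the shoulder level, read 7.53, 6.94 and 6.91 in lines 1, 2 and 3 against 7.95, 8.12 and 8.14 in the pre-osteoblasts (-0.95, SE 0.16, adjusted p = 0.00369). Hoxb3 read 8.57, 8.14 and 8.43 against 9.10, 9.01 and 9.24 (-0.73, SE 0.11, adjusted p = 0.00244). Hoxb6 read 7.55, 7.20 and 7.17 against 8.45, 7.82 and 8.20 (-0.85, SE 0.16, adjusted p = 0.00681). For each of these genes every line lay below every pre-osteoblast culture, and line 1 was the highest of the lines.

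Hoxa3 stood in the lines at 7.54, 7.81 and 7.22, close to its level in osteoblasts and below the pre-osteoblasts (-0.71, SE 0.13, adjusted p = 0.0064). Hoxc13 read 8.69, 7.41 and 8.45 in the lines, again below all pre-osteoblast cultures (-1.83, SE 0.30, adjusted p = 0.0035). Hoxc12 read 9.81, 7.72 and 10.73, a difference of -1.94 (SE 0.63) that was not called (adjusted p = 0.0603) although all lines lay below all pre-osteoblasts. Hoxc12 was called without line 2 (-1.09, adjusted p = 0.0198) or without line 3 (-2.60, adjusted p = 0.0114). Line 2 was the line seen to lie apart at this gene, so these p-values do not test a split among the lines. They do not replace the result of the fit of all groups.

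Hoxa11 patterns the forearm and shank and is a marker of the regional stromal cells of those segments. It read 6.97 in line 1, 6.48 in line 2 and 9.03 in line 3, against 9.47, 9.35 and 9.36 in pre-osteoblasts. Lines 1 and 2 were near the receptor range and line 3 lay close to the Kusa4b10 cultures. The mean difference of -1.90 (SE 0.55, adjusted p = 0.0394) therefore describes lines 1 and 2 and not line 3. Its call was lost without line 1 (adjusted p = 0.118) or line 2 (0.0872), and without any 1 of the 6 Kusa4b10 arrays (0.0607 to 0.106).

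Hoxd8 read 6.73, 6.54 and 7.17 in the lines and 5.33, 5.56 and 5.53 in the pre-osteoblasts, and every line lay above every culture. The fitted difference was 1.34 (SE 0.15, adjusted p = 0.000561). All Kusa4b10 cultures lay under the 95th percentile of receptor genes, so no fold is given. The raised level was no higher than the 99th percentile of receptor genes, and line 2 lay under the 95th. Hoxd4, an anterior gene of the neck vertebrae, read 6.88, 6.79 and 7.19 against 6.44, 6.62 and 6.46 (0.45, SE 0.10, adjusted p = 0.0155). Its pre-osteoblast cultures too lay under the 95th percentile. That call was lost without pre-osteoblast replicate 1 (0.0559) or 3 (0.0569), which left 1 gene called higher.

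The third comparison sets the tumour lines against the differentiated cultures. Hoxa5, Hoxa6, Hoxa10, Hoxc10 and Hoxd8 were higher in the lines, and Hoxb3, Hoxb4 and Hoxb7 were lower. Of 37 Hox genes, 5 were called higher (13.5%, against 14.7% of all genes) and 3 lower (8.11%, against 12.7%). The groups did not overlap for 6 genes that were higher (16.2%, against 19.6% of all genes) and 3 that were lower (8.11%, against 19.1%). This comparison shares its tumour arrays with the one before and its osteoblast arrays with the first, so the lists are not independent of each other.

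Hoxa6, a thoracic gene, read 9.21, 9.91 and 9.10 in lines 1, 2 and 3 against 8.56, 8.51 and 8.61 in osteoblasts (0.85, SE 0.19, adjusted p = 0.0112). Its 3' neighbour Hoxa5, of the neck to thorax boundary, read 9.08, 9.54 and 9.17 against 8.90, 8.80 and 8.71 (0.46, SE 0.12, adjusted p = 0.0206). Hoxa10 read 9.40, 9.40 and 9.47 (0.21, SE 0.06, adjusted p = 0.0356), above all osteoblast cultures. Line 2 was the highest for Hoxa5 and Hoxa6, and the lines hardly differed at Hoxa10.

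Hoxc10 read 10.09, 10.06 and 9.34 in the lines, and each line exceeded the highest osteoblast culture at 9.21 (0.66, SE 0.18, adjusted p = 0.0269). Lines 1 and 2 matched the pre-osteoblast level of Hoxc10, whereas line 3 was nearer the osteoblasts. For Hoxd8 the fitted difference from the osteoblasts was 1.31 (SE 0.15, adjusted p = 0.000485), against cultures at 5.48, 5.56 and 5.48, under the 95th percentile of receptor genes.

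Lower in the lines were Hoxb7, at 7.59, 7.51 and 7.59 against 8.03, 8.05 and 8.07 (-0.49, SE 0.06, adjusted p = 0.000609), and Hoxb4, at 7.67, 7.11 and 6.97 against 8.10, 7.95 and 7.93 (-0.74, SE 0.16, adjusted p = 0.0101). Hoxb4 is known for expanding blood stem cells when forced on. Hoxb3 was lower here too (-0.47, SE 0.11, adjusted p = 0.0143), with osteoblasts at 8.93, 8.83 and 8.81. The probe set shared by Hoxb7 and Hoxb8 read 7.26, 6.46 and 6.59 in lines 1, 2 and 3 and 6.70 to 6.80 in osteoblasts. It was thus higher than in osteoblasts in line 1 and lower in lines 2 and 3.

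Hoxa11 was 1.51 lower on average but was not called (SE 0.55, adjusted p = 0.0785). With line 3 left out the difference was -2.28 with an adjusted p of 0.000156. Line 3 was the line seen to lie apart, so that p-value does not test a split among the lines. Without line 3, 8 Hox genes were called higher, and without line 1, 3 were higher and 5 lower. Without osteoblast replicate 1, 2 or 3, respectively 3, 2 and 2 were called higher, with Hoxa10 lost each time, Hoxc10 lost each time and Hoxa5 lost without replicate 2 (0.0548) or 3 (0.0768). Hoxc10 was also lost without line 1 (0.0846) or line 2 (0.0723), Hoxa10 without any line (0.0563 to 0.0861) or pre-osteoblast replicate 1 (0.0518), and Hoxb3 without osteoblast replicate 1 (0.0578).

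**Figure D2:**
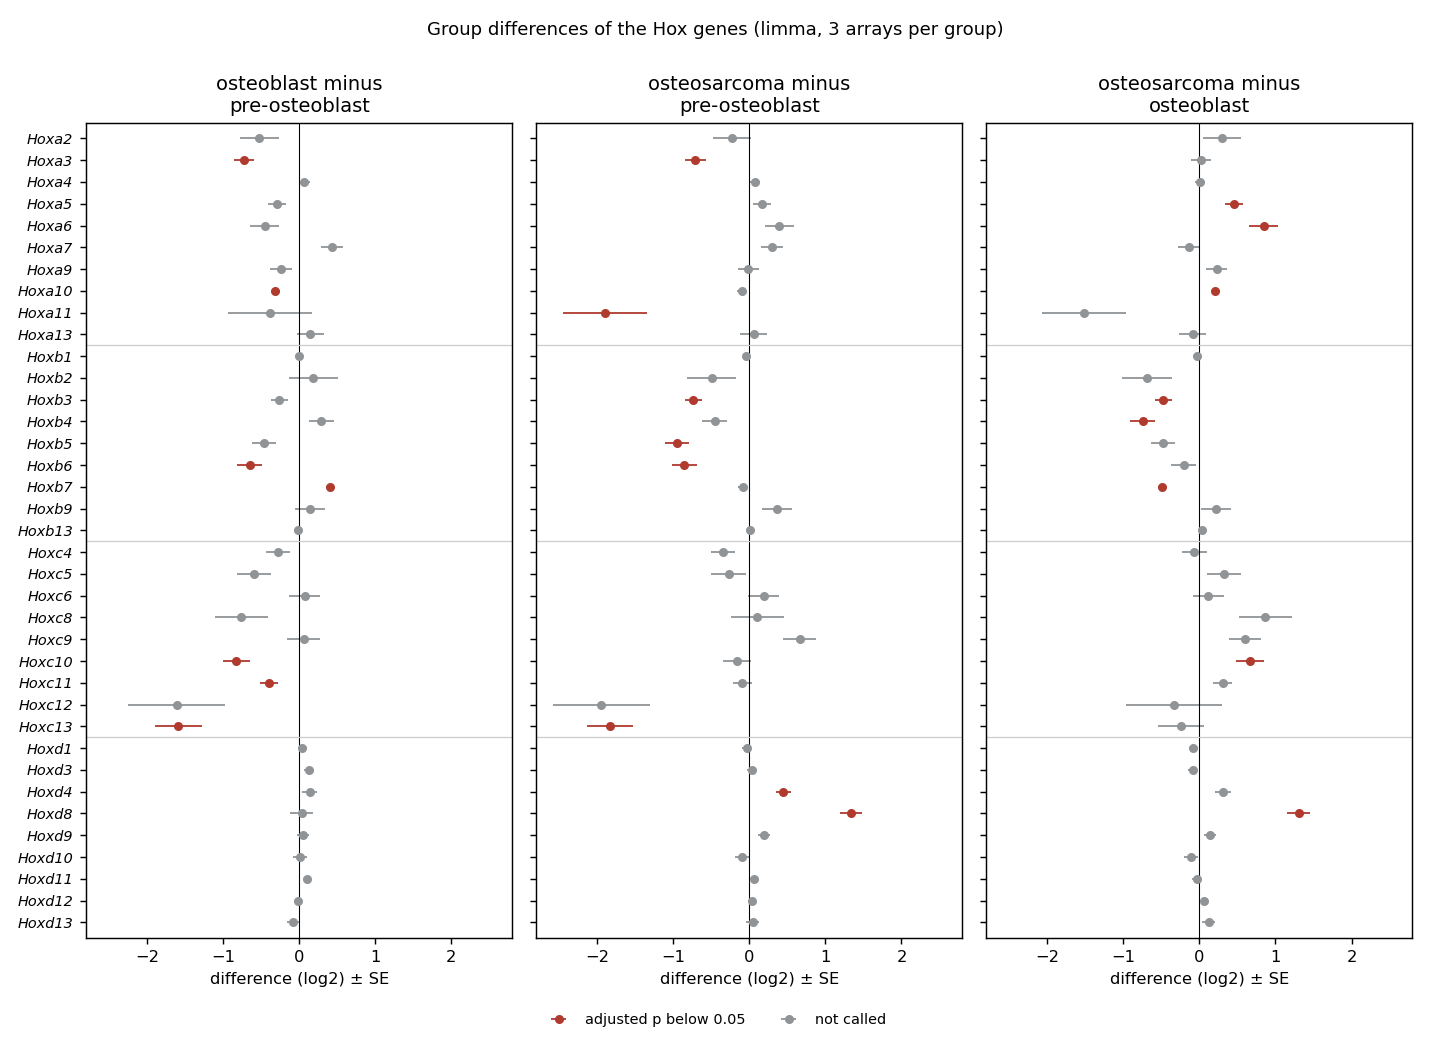
Difference in log2 level (x axis, with standard error) of each Hox gene in the 3 comparisons, 3 arrays per group, with genes called at an adjusted p below 0.05 in red. Hoxc10, Hoxc11 and Hoxc13 lie left of 0 in the first panel, Hoxb3, Hoxb5 and Hoxb6 left of 0 in the second, and Hoxd8 stands near 1.3 in the panels with tumour lines, at 1.34 and 1.31.

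Over all 3 groups at once, a moderated F test called 13 of 37 Hox genes (35.1%, against 38.4% of all genes). They were 4 of Hoxa (Hoxa3, Hoxa5, Hoxa6 and Hoxa10), 5 of Hoxb (Hoxb3 to Hoxb7), 2 of Hoxc (Hoxc10 and Hoxc13) and 2 of Hoxd (Hoxd4 and Hoxd8). By position they were 4 of 11 anterior, 6 of 10 central and 3 of 16 posterior genes. Hoxa11 and Hoxc12, whose lines differ most, were not among them (adjusted p = 0.0506 and 0.0758).

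The tumour lines were set against each other as a description of 3 arrays without replicates, with no test. For 6 of 37 Hox genes the highest and lowest line were at least 1 log2 apart (16.2%, against 4.95% of all genes), and for 2 of them at least 2 log2. The median range over the lines was 0.58 log2 for Hox genes and 0.22 for all genes. By cluster it was 0.60 for Hoxa, 0.43 for Hoxb, 0.87 for Hoxc and 0.13 for Hoxd. Between replicates of a Kusa4b10 group, 0 of 37 Hox genes were 1 log2 apart, against 2.07% of all genes. Members of 1 cluster share regulation and position, so these are not 6 independent events.

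Hoxc12 had the widest range, 3.02 log2 or 8.09-fold between line 3 at 10.73 and line 2 at 7.72, which put it at percentile 99.69 among all genes. The Hoxa11 values spanned 2.55 log2, here with line 3 high and both other lines low; line 2 was under the 95th percentile of receptor genes, so no fold is given. Hoxc13 spanned 1.29, again with line 2 lowest. Line 2 was thus the lowest line at all of these posterior genes.

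Hoxb2, a hindbrain and neural crest gene, read 8.84, 7.70 and 7.36 in lines 1, 2 and 3, with Kusa4b10 cultures between 8.24 and 8.73. Line 1 was just above the Kusa4b10 range and lines 2 and 3 were clearly below it. With line 1 left out the difference from osteoblasts was -1.12 with an adjusted p of 0.0020. Line 1 was the line seen to lie apart, so that p-value does not test a split among the lines. Hoxc8, which patterns ribs and sternum, read 9.99, 8.69 and 8.53, with line 1 apart. Hoxa2, the gene that patterns the second pharyngeal arch, read 7.16, 7.70 and 6.55, with line 3 under the 95th percentile of receptor genes.

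**Figure D3:**
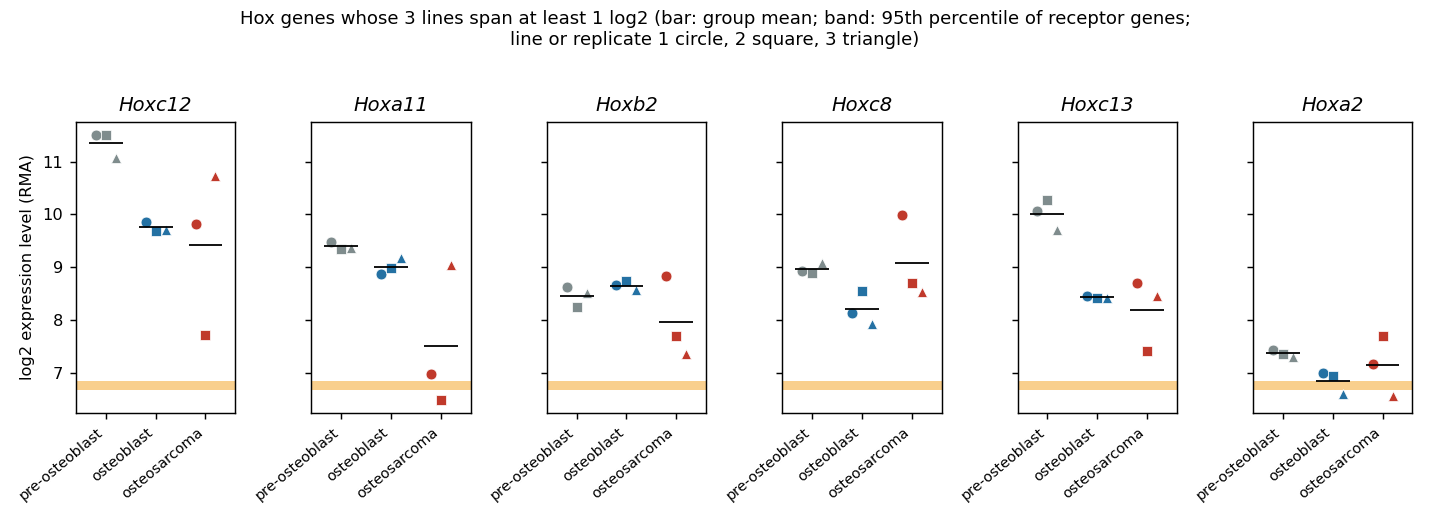
Log2 level on each array of the 6 Hox genes whose lines span at least 1 log2; black bars are group means and the orange band is the 95th percentile of receptor genes over the arrays. Hoxa11 shows line 3 at 9.03 beside the Kusa4b10 cultures and lines 1 and 2 near the band, and Hoxc12 shows line 2 at 7.72 apart from all others.

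Pairs of lines differed by at least 1 log2 at 4 Hox genes for lines 1 and 2 (10.8%, against 2.86% of all genes), 3 for lines 1 and 3 (8.11%, against 1.99%) and 4 for lines 2 and 3 (10.8%, against 3.18%). Line 1 was the high line at Hoxb2, Hoxc8, Hoxc6 and Hoxb9. Hoxc6 read 9.53 there against 8.92 and 8.57 in lines 2 and 3, and Hoxb9 read 8.38 against 7.55 and 7.72.

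Each line was then set against the range of all 6 Kusa4b10 arrays. By a margin of 1 log2, line 1 was above it at Hoxd8 (1 of 37, 2.70%, against 1.54% of all genes) and below it at Hoxa11 (2.70%, against 0.582%). Line 2 was above it at 0 genes (against 1.31%) and below it at Hoxa11, Hoxc12 and Hoxc13 (8.11%, against 1.09%). Line 3 was above it at Hoxd8 (2.70%, against 1.36%) and below it at 0 genes (against 0.792%). For Hoxd8 line 2 was above the range as well, by slightly less than 1 log2.

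By any margin, line 1 was above the Kusa4b10 range at 11 Hox genes (29.7%, against 16.8% of all genes) and below it at 6 (16.2%, against 28.4%). Line 2 was above it at 10 (27.0%, against 22.3%) and below it at 12 (32.4%, against 23.5%). Line 3 was above it at 8 (21.6%, against 21.2%) and below it at 9 (24.3%, against 21.6%). In line 1 the 11 were 1 Hoxa, 2 Hoxb, 4 Hoxc (Hoxc6, Hoxc8, Hoxc9 and Hoxc10) and 4 Hoxd genes, and the 6 below were 3 Hoxa, 2 Hoxb and 1 Hoxd genes. In line 2 the 10 included 6 Hoxa genes (Hoxa2, Hoxa4, Hoxa5, Hoxa6, Hoxa7 and Hoxa9), and the 12 below included the 7 Hoxb genes from Hoxb1 to Hoxb7. Of these, Hoxb1 was below by only 0.0011 log2 and Hoxb7 by 0.0438, while Hoxb2 to Hoxb6 were below by 0.2007 to 0.664. In line 3 the 9 below included 5 Hoxb genes, Hoxb2 to Hoxb6, and the 8 above were 2 Hoxa, 1 Hoxb and 5 Hoxd genes, the last low in all samples. Whether these genes lie together along the clusters more than other genes was not tested.

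Hoxc9, a thoracic gene, illustrates a split among the lines in the upward direction, at 9.77 and 9.73 in lines 1 and 2 and 8.90 in line 3, against 8.65 to 8.92 in Kusa4b10. It was not called against pre-osteoblasts (0.66, SE 0.21, adjusted p = 0.0588). Without line 3 that difference was 0.94 with an adjusted p of 0.000788. The line left out was the one seen to lie apart, so this p-value does not test the split.

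**Figure D4:**
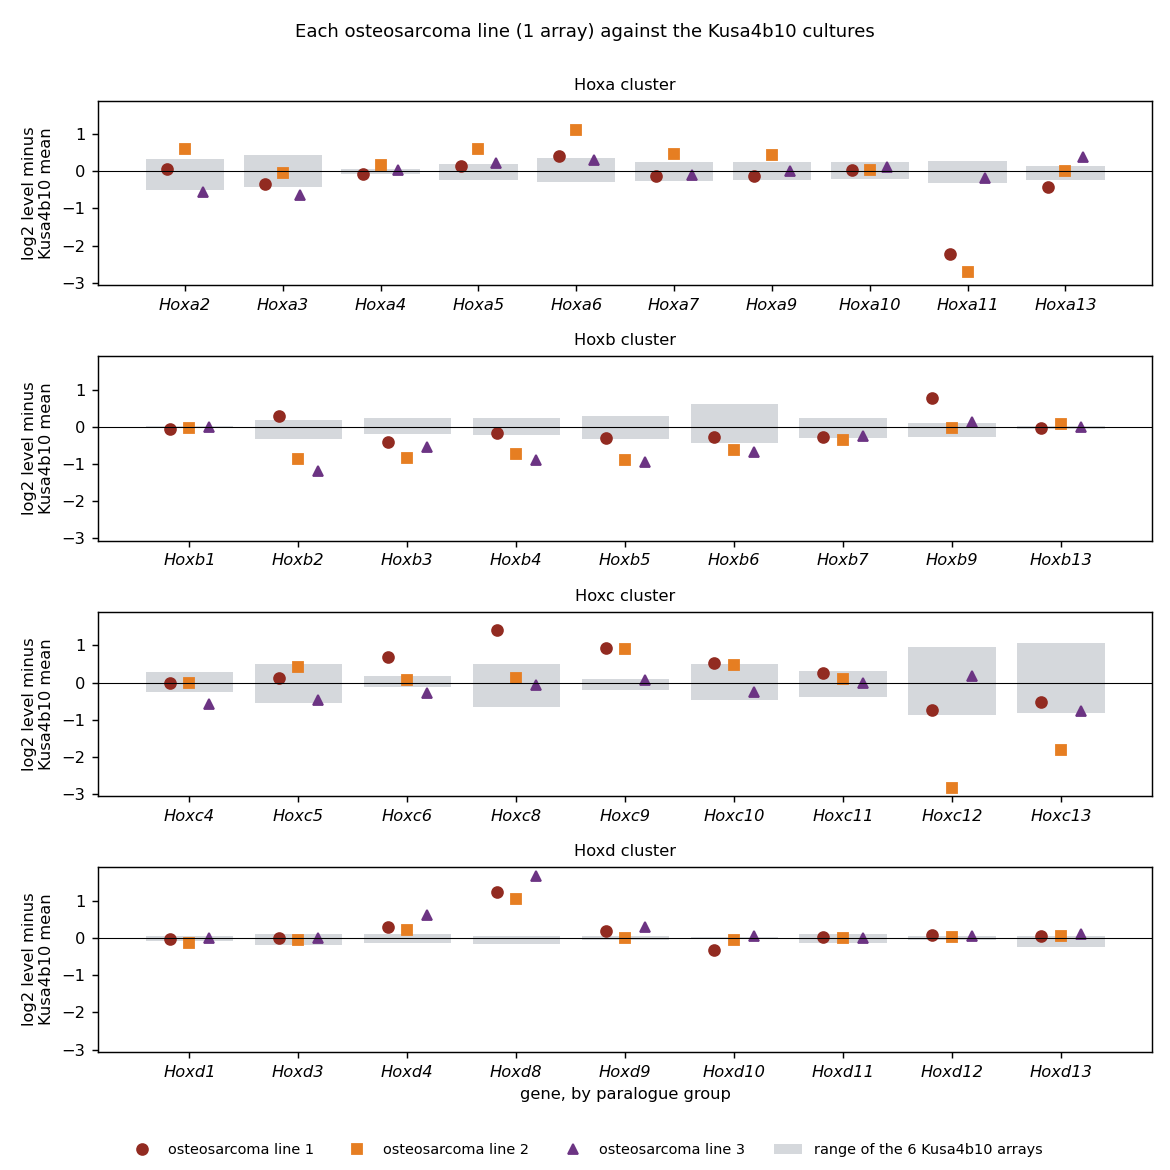
Level of each osteosarcoma line (1 array each) minus the mean of the 6 Kusa4b10 arrays, in log2, for each Hox gene in cluster order; grey boxes give the range of the Kusa4b10 arrays. Lines 2 and 3 lie below the boxes from Hoxb2 to Hoxb6, line 2 above them for most of Hoxa2 to Hoxa9, and lines 1 and 2 far below at Hoxa11.

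Genes that work with, act on or surround the clusters were counted on lists, and no list was tested as a set. For each list below, the shares of all genes called are the measure to read beside the counts. In osteoblasts against pre-osteoblasts they were 10.3% higher and 15.8% lower. For the tumour lines they were 9.96% and 13.5% against pre-osteoblasts, and 14.7% and 12.7% against osteoblasts. Among 10 TALE cofactors measured, osteoblasts had 1 higher and 2 lower than pre-osteoblasts, tumour lines had 1 higher and 2 lower than pre-osteoblasts, and 2 higher and 2 lower than osteoblasts. Pbx3, which stabilises Hox binding to DNA, read 11.29, 11.32 and 10.91 in the lines against 10.34, 10.67 and 10.37 in pre-osteoblasts (0.71, SE 0.13, adjusted p = 0.00489) and 10.24, 10.30 and 10.20 in osteoblasts (0.93, SE 0.13, adjusted p = 0.00115). Every line was above every Kusa4b10 culture. Pbx2 was lower in lines and osteoblasts than in pre-osteoblasts (-0.50 and -0.46, SE 0.06 each, adjusted p = 0.000873 and 0.00108). Meis2, a partner of posterior Hox proteins, was not called in any comparison and read 11.19, 10.54 and 9.73 in lines 1, 2 and 3.

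Of 30 chromatin regulators of the clusters, 6 were higher and 5 lower in the lines than in pre-osteoblasts, and 8 higher and 8 lower than in osteoblasts; osteoblasts had 5 higher and 9 lower than pre-osteoblasts. Psip1, a reader of methylated histone H3 that recruits activating and repressive complexes to Hox genes, read 10.29, 10.84 and 10.04 in the lines against 8.97, 9.27 and 9.27 in pre-osteoblasts (1.22, SE 0.19, adjusted p = 0.00268). Ezh2, the methyltransferase of Polycomb complex PRC2, read 11.72, 11.97 and 11.60 against 10.86, 11.22 and 11.02 (0.73, SE 0.12, adjusted p = 0.00364). Ring1, of complex PRC1, was lower in the lines (-0.59, SE 0.06, adjusted p = 0.000408). Gmnn was lower in osteoblasts than in pre-osteoblasts (-0.71, SE 0.12, adjusted p = 0.0028), where its osteoblast cultures lay under the 95th percentile of receptor genes, and Cbx7 higher (0.71, SE 0.13, adjusted p = 0.00453). Ctcf, the insulator protein of cluster boundaries, was not called in any comparison and read 10.20 to 10.67.

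Upstream inducers gave 2 higher and 3 lower of 11 in osteoblasts against pre-osteoblasts, and 0 higher and 2 lower for the tumour lines in each of their comparisons. Rara and Rarg, receptors for the retinoic acid that induces the clusters in the embryo, were lower in osteoblasts (-0.78 and -0.57, SE 0.10 each, adjusted p = 0.000749 and 0.00337) and in the tumour lines (-0.59 for each, SE 0.10, adjusted p = 0.0033 and 0.0034) than in pre-osteoblasts. Nr6a1, which acts in the timing of trunk Hox genes, was 1.00 higher in osteoblasts (SE 0.08, adjusted p = 0.000135), and Egr2, a hindbrain inducer of Hoxb2, was 1.13 higher (SE 0.18, adjusted p = 0.0023). Cdx2, the caudal factor of the early embryo, was not called and read 6.79 to 7.04.

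Of 21 genes flanking the clusters, osteoblasts had 1 higher and 2 lower than pre-osteoblasts; 1 higher and 2 lower in the lines than in pre-osteoblasts, and 3 higher and 3 lower in the lines than in osteoblasts. Copz1, which lies near Hoxc, was lower than in pre-osteoblasts in both osteoblasts (-0.80, SE 0.11, adjusted p = 0.00147) and tumour lines (-0.65, SE 0.11, adjusted p = 0.00458). Cbx5 from the same side was lower in osteoblasts (-1.08, SE 0.14, adjusted p = 0.00104) and differed from pre-osteoblasts by -0.03 in the lines. Evx2, next to Hoxd13, was not called and read 7.62 to 7.88.

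Of 10 non-coding genes inside the clusters, 1 was lower in osteoblasts against pre-osteoblasts (Mir196b), 1 was lower in the lines than in pre-osteoblasts (Mir10a) and 0 were called between lines and osteoblasts. The mature forms that these genes encode are shown because they target Hox messages and fall into a pair of seed families. Capitals mark the seed, bases 2 to 8 from the 5' end, and the sequences are RefSeq's on GRCm38.p6.
mmu-miR-10a-5p: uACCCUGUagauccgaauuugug
mmu-miR-10b-5p: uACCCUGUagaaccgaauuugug
mmu-miR-196a-5p: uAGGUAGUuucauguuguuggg
mmu-miR-196b-5p: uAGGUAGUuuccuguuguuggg
Within each family the seed is shared and the sequences differ at 1 base, counted from 1 at the 5' end, which is A12U from miR-10b to miR-10a and C12A from miR-196b to miR-196a. Mir196b, between Hoxa9 and Hoxa10, read 7.96, 7.42 and 7.33 in pre-osteoblasts and 7.05, 7.05 and 6.70 in osteoblasts (-0.64, SE 0.18, adjusted p = 0.0298). Mir10a, near Hoxb4, read 5.27, 4.58 and 4.71 in pre-osteoblasts and 4.18, 4.19 and 3.79 in the lines (-0.80, SE 0.18, adjusted p = 0.0148). Mir10a thus lay under the 95th percentile of receptor genes on all arrays. Mir10b, in the Hoxd cluster, read 3.85 to 4.01 throughout and was not called. These probe sets are for the miRNA genes and do not measure the mature forms.

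Patterning factors outside the clusters also mark position. Of 34 limb, girdle and axial factors, osteoblasts had 3 higher and 7 lower than pre-osteoblasts, the lines had 4 higher and 3 lower than pre-osteoblasts, and 9 higher and 3 lower than osteoblasts. Lhx9, a limb bud factor, was lower than in pre-osteoblasts in osteoblasts (-2.34, SE 0.30, adjusted p = 0.00101) and in the lines (-2.20, SE 0.30, adjusted p = 0.00155). Irx3 rose by 2.04 from pre-osteoblasts to osteoblasts (SE 0.17, adjusted p = 0.000128). Meox2, a limb muscle and somite factor, read 10.53, 7.74 and 10.45 in the lines against 5.62 to 6.00 in Kusa4b10, under the 95th percentile of receptor genes (fitted difference from pre-osteoblasts 3.80, SE 0.65, adjusted p = 0.00396). Line 2 had the lowest Meox2 of the lines, as it did of Hoxc12. Hoxa11 differed from this, at 6.97 in line 1 and 6.48 in line 2, both near the receptor range, and 9.03 in line 3. Prrx2, a homeobox factor of limb mesenchyme, was higher in the lines than in osteoblasts (1.49, SE 0.22, adjusted p = 0.00181).

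The factors that mark forelimb and hindlimb were read as well, chosen after their values were seen. Tbx5, of the forelimb, read 5.59 to 5.92 on all 9 arrays, under the receptor range. Pitx1, of the hindlimb, read 8.01, 9.68 and 9.45 in lines 1, 2 and 3, 9.18 to 9.38 in osteoblasts and 9.85 to 9.95 in pre-osteoblasts. Tbx4, its hindlimb partner, read 6.59 to 6.87 and was above the 95th percentile of receptor genes on only 1 of the 9 arrays. Pitx1 was not called in any comparison, and line 1 was the lowest array.

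Among 20 craniofacial factors, osteoblasts had 1 higher and 4 lower than pre-osteoblasts, the lines had 1 higher and 2 lower than pre-osteoblasts, and 3 higher and 3 lower than osteoblasts. Tfap2a, a neural crest factor, read 7.67, 7.09 and 6.65 in the lines against 9.33 to 9.42 in pre-osteoblasts (-2.25, SE 0.21, adjusted p = 0.000282) and 8.74 to 8.82 in osteoblasts, with line 3 under the 95th percentile of receptor genes. Dlx2, of the jaw arches, was 1.06 higher in the lines than in osteoblasts (SE 0.06, adjusted p = 4.06e-05), and Dlx3 was 1.17 lower (SE 0.09, adjusted p = 9.28e-05). The range over the lines reached 1 log2 for 7 of these 20 factors and for 6 of the 34 limb, girdle and axial factors, beside 4.95% of all genes. Six2 was high in line 2 alone, at 9.86 against 7.39 and 7.48 in lines 1 and 3, and was chosen, as Lhx8 was, after its values were seen. Lhx8 was high in line 1 alone, at 8.31 against 6.41 and 6.57.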

How the data were processed

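RNA of 9 samples was hybridised to single-sample arrays. The authors summarised probe sets with RMA, and the deposited table holds its log2 levels (genome build mm9, per the submitters' processing notes). Neither the RMA version nor any filter is given in the sources used here. RMA normalizes between arrays, so a difference is relative to the other genes, and it compresses differences near background. Array medians were 7.43 to 7.56, and at most 4.33% of values were equal between replicates. Per the labels the Kusa4b10 replicates are independent; how they were kept apart is not stated, so their spread may be technical, and the spread of the osteosarcoma group is that between lines.

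Of 35556 probe sets, 21789 had 1 gene symbol, 1621 several and 12146 none in the platform annotation; the first were used, with the probe set of highest mean per gene (19938 genes). Of these probe sets, 21698 matched a reference gene table, which changed 0 symbols. With limma 3.58.1 in R 4.3.3, the 9 arrays were fitted with 1 mean per group (3 means) and moderated with eBayes (6 residual and 2.19 prior degrees of freedom). Tests were two-sided, the Benjamini-Hochberg adjustment ran over all genes, and an adjusted p below 0.05 counted as a call. The number of arrays limits the precision. The script was tested on simulated data.

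The members, the lists and the naming rule were chosen with earlier results of these data known. By that rule every Hox gene may be named, and from each list up to 4 called genes with the largest differences in a comparison and 1 not called, besides Rb1 and Trp53. Lines 1, 2 and 3 are numbered in the order of the records. The alternatives tried were filters on dim genes, probe set means, further normalization, a trended prior, array weights, fits of the compared groups alone, a replicate block, leaving out each array, and other thresholds for line ranges and receptor levels.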

Additional observations from a re-analysis of the deposited data

How the results depend on the processing

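For the 37 Hox genes, no difference followed changed its direction under any setting tried; of 23 called differences, the call was kept in 172 of 207 values without 1 array and in 166 of 177 at other settings, and 10 not called in the fit of all groups gained a call in 12 of 90 and 20 of 83. In osteoblasts against pre-osteoblasts, 1 gene higher became 2 with a filter at the lower quartile, with quantile normalization again and with array weights per group. It became 3 when the tumour lines were left out of the fit. The 6 lower became 3 with a filter at the median, 11 with array weights and 14 without the tumour lines. The filter at the median left 17 of the 37 Hox genes tested, and the called genes Hoxa3, Hoxb6, Hoxb7 and Hoxc11 were not among them. The replicate number was used as a block only in the fit of the Kusa4b10 arrays alone. There 2 were higher and 11 lower, against 3 and 14 without the block. Whether the numbers pair the cultures was not settled. Same-numbered deviations correlated at 0.152, 0.176 and 0.0278, and differently numbered ones at -0.16 to 0.0766. Osteoblast replicate 3 correlated better with pre-osteoblast replicate 1 (0.0766) than with its own number (0.0278). In tumour lines against pre-osteoblasts, 2 higher (Hoxd4 and Hoxd8) became 1 (Hoxd8) in a fit of these groups alone. With a filter at the median neither was tested, and 1 other gene, Hoxc9, was called higher. In tumour lines against osteoblasts, 5 higher became 3 in a fit of these groups alone and 3 lower became 5 with array weights. Leaving out each array gave 1 to 3 higher and 4 to 9 lower in the first comparison, 1 to 3 higher and 5 to 7 lower in the second, 2 to 8 higher and 2 to 5 lower in the third, and 9 to 18 in the F test. A fold of 2 log2 left 2 of 6 genes with line ranges, and the 99th percentile left 15 of 25 genes above the receptor range. A filter on dim genes left Hoxd8 untested. Further scaling moved an array's median by at most 0.0858 log2. Levels of the Hoxd genes and of Hoxb13 near background limit what can be said of them.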
